A study of Mus musculus with 2 samples.

Results

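Zbtb16, Gata3, Rora, Maf and Hivep3 encode transcription factors that mark or direct the subsets of invariant natural killer T (iNKT) cells. They were taken as a set of 5 by name from the 32285 features of the count matrices, and all 5 had UMIs in both libraries. The cells were YFP+ thymus cells of mice with a Cre recombinase under Tbx21, which encodes T-bet. Both genotypes carried this Cre and the Rosa26-YFP reporter, so YFP marked cells that had at some time expressed the Cre, whatever their T-bet level when sorted. The control library (Tbx21Cre Rosa26-YFP+) had intact Ets1, and the cKO library (Tbx21Cre Ets1F/F Rosa26-YFP+) carried a floxed Ets1, an ETS family transcription factor. Each library was 1 pool of 2 mice that cannot be told apart, and neither the age of the mice nor the floxed exons are given in the sources used here. With 1 library per genotype there is no replicate check, no test was made, and every interval below is an exact 95% interval that covers counting error only.

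iNKT cells are T cells with a semi-invariant receptor, in mice built on the Trav11 segment, that see lipids on CD1d and acquire effector functions in the thymus. PLZF, the product of Zbtb16, gives them their innate-like character and is highest in the type 2 subset, which also has high GATA3. T-bet marks the type 1 subset. RORα, the product of Rora, is a nuclear receptor best known in type 2 innate lymphoid cells, in Th17 cells and in the circadian clock. c-Maf, the product of Maf, is a basic leucine zipper factor that acts on the genes of IL-4, IL-10 and IL-17, and Hivep3 encodes the large zinc finger protein Schnurri-3.

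In control 10102 barcodes carried 35210431 UMIs, in cKO 11206 carried 39979742, and 7395 and 5903 cells had at least 500 genes and at most 10% mitochondrial UMIs. The limit on mitochondrial UMIs was exceeded by 6.76% of control and 28.6% of cKO barcodes, and 29 barcodes, 14 of them in kept cells, occurred in both libraries. CD3+ Cd8b1- cells, called T cells here, had a UMI of Cd3d, Cd3e or Cd3g and none of Cd8b1. They numbered 6236 in control and 2976 in cKO, with median depths of 2582 and 6744 UMIs. There were 178 control and 149 cKO cells with a Trav11 UMI, and 105 and 53 NK cells with an Ncr1 UMI and no CD3 UMI. The 10 T cell markers summed to 7528 CPM (the UMIs of the genes scaled to a common total of UMIs of all genes in the same cells) in control T cells and 7581 in cKO T cells, and none of the 10 differed by 1.5-fold. Cd3d, Cd3e and Cd3g, which define the gate, are among the 10, so the sums are in part set by it. At least 1 UMI of the 14 gut epithelium genes was found in 3.18% of control and 44.6% of cKO T cells, where these genes summed to 11.5 and 1268 CPM. B cell markers summed to 662 and 1408 CPM, the NK list to 1172 and 757 CPM, the myeloid list to 119 and 293 CPM and the erythroid list to 219 and 1.55 CPM. The part of these transcripts in the levels of T cells was not tested, except where a level without such cells is given. Ets1 itself stood at 524 CPM in control against 168 CPM in cKO T cells, 3.13-fold lower (3.02 to 3.24), read at its 3′ end.

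Rora and Hivep3 were the members that differed most between the libraries, and the 300 bases around their annotated starts are shown here for that reason, since the deleted factor binds DNA with the ETS core GGAA. The sequences are those of RefSeq on GRCm38.p6, from 250 bases before to 50 bases after the start, 5′ to 3′ on the plus strand, with GGAA and its reverse complement TTCC in capitals. The Rora window is chr9:68653536-68653835 and the Hivep3 window is chr4:119814428-119814727.
Rora: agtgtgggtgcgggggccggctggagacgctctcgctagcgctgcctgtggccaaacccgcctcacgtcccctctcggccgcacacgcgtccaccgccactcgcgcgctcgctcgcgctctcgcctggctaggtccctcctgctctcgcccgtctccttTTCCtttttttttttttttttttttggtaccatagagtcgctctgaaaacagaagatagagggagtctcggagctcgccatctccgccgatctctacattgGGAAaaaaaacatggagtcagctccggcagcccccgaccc
Hivep3: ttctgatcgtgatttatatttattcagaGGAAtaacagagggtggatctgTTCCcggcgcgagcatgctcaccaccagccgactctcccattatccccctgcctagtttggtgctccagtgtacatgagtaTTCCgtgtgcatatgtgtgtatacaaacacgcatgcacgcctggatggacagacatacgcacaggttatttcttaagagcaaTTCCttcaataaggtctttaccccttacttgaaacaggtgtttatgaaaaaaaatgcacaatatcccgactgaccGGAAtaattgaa
The Rora window held GGAA in 1 place and TTCC in 1 place, and the Hivep3 window held GGAA in 2 places and TTCC in 3. On either strand, this core stood in 96.0% of 32851 promoter windows of the same length, and the longer CCGGAAG, which contains it, stood in 8.86% of them and in neither window shown. The matches are a description of the letters only. The counts come from 3′ ends of transcripts and do not show which start site was used, and the RefSeq start of Hivep3 lies inside the GENCODE gene.

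Rora, the gene of the nuclear receptor RORα, was the member with the highest ratio of cKO to control in T cells. It stood at 43.4 CPM (40.9 to 45.9) in control T cells, from 1158 UMIs, and at 185 CPM (179 to 191) in cKO T cells, from 4054 UMIs. The intervals lie far apart, and the cKO level was 4.26-fold higher (3.99 to 4.56). A gene met the size rule when it differed by at least 1.5-fold, reached 20 CPM in the higher library and had a ratio whose interval excluded 1. Of 5964 genes that reached 20 CPM in T cells, 12.7% met the rule as higher in cKO and 5.08% as lower. Rora had the 75th highest ratio of them. Of the 5 members, 1 was higher by the rule, 1 was lower and 3 met it in neither direction.

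In cells with a Trav11 UMI the difference in Rora was larger. The 178 control cells held 30 Rora UMIs, 24.4 CPM (16.5 to 34.9), and the 149 cKO cells held 261, 207 CPM (182 to 233), which is 8.34-fold higher (5.79 to 12.8). Rora had the 34th highest ratio of 6160 genes in this gate, where 16.1% of genes were higher and 7.69% lower by the rule. These cells had near equal depths, with medians of 6602 UMIs in control and 7038 in cKO. In them the gut list summed to 13 and 79.2 CPM, the B cell list to 478 and 136 CPM and the erythroid list to 239 and 0.792 CPM. The NK list summed to 1149 and 517 CPM, with 6 of 8 genes lower in cKO. Of 8 mature CD8 T cell genes 4 were higher in cKO and 1 was lower, and the list summed to 957 and 782 CPM. Among the higher were Cd8a (8.95 and 57.0 CPM), Cd8b1 with levels of 19.5 and 74.4 CPM, and the egress receptor gene S1pr1 (7.33 and 47.5 CPM). Ly6c2, with the highest level of the list, stood at 915 and 550 CPM. In Trav11+ cells with a CD3 UMI and no Cd8b1 UMI, the Rora ratio was 8.68. The part of the other markers in the Rora level was not tested. Trav11 has near-identical annotated copies, so the gate rests on uncertain segment counts. Among T cells with any Trav UMI, Trav11 was found in 164 of 545 control and 139 of 498 cKO cells, shares of 30.1% and 27.9%.

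NK cells, in which the NK list summed to 9664 and 7222 CPM, held few UMIs of Rora. The control NK cells had 16, at 29.3 CPM (16.7 to 47.6), and the cKO NK cells had 30, at 70.7 CPM (47.7 to 101), a ratio of 2.38 (1.27 to 4.74) that met the rule in a gate where 7.13% of 6308 genes were higher and 9.78% lower. Of the 16 control UMIs 10 lay in 1 of the 6 cells with any, and of the 30 cKO UMIs 7 lay in 1 of 13. The direction did not hold when each cell was thinned to 1500 UMIs before it was gated, where the ratio was 0.718 (0.0624 to 3.23). Gut transcripts summed to 7.32 CPM in control against 3099 CPM in cKO NK cells, and a Tyrobp UMI, an adaptor gene that NK cells use, was found in 101 of 105 and 38 of 53 of them.

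Rora was also higher in cKO in each other T cell gate. In CD3+ Cd8b1+ cells, where 22.3% of genes were higher and 6.29% lower by the rule, its control level was 18.7 CPM (15.2 to 22.8) and its cKO level 81.9 CPM (74.8 to 89.5), a ratio of 4.35. T cells with a UMI of Klrb1c, which encodes NK1.1, where 15.9% of genes were higher and 7.63% lower, had 36.2 CPM and 172 CPM, a ratio of 4.76 (4.2 to 5.39). Those with Izumo1r, the gene of folate receptor 4, but no Klrb1c had the smallest ratio of these gates, 1.98 (1.68 to 2.34), at 54.8 CPM and 109 CPM, where 8.49% of genes were higher and 4.98% lower. In these cells the regulatory T cell list summed to 462 and 951 CPM, with 5 of 6 genes higher, and its part in the Rora ratio was not tested. The remaining T cells, with neither transcript, stood at 50.2 and 202 CPM, where 14.7% of genes were higher and 5.12% lower. Within the control library the order of these 3 T cell gates by Rora, from the lowest, was Klrb1c+, then the cells with neither transcript, then Izumo1r+, the last pair with overlapping intervals. In the cKO library Izumo1r+ cells were lowest. Klrb1c and Izumo1r themselves differed between the libraries, at 172 and 23.4 CPM and at 167 and 47.3 CPM in T cells, so these gates do not hold like shares of the cells. Median depths in control were 6190 UMIs for Klrb1c+ cells, 3280 for Izumo1r+ cells and 1530 for the rest, and in cKO 7477, 8038 and 6532. A UMI is more easily missed in a shallow cell, so control cells with neither transcript may include cells that express 1 of them. The part of depth in these levels was not tested. In B cells, with 1 control and 4 cKO UMIs, Rora stood at 2.94 and 2.21 CPM, and in the 1727 cKO cells rich in gut transcripts it stood at 6.42 CPM.

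About equal numbers of the cKO T cells had or lacked a UMI of Fxyd7, a regulator of the sodium pump, which only 2 control T cells had. Rora stood at 221 CPM (213 to 231) in the 1487 cKO T cells with Fxyd7 and at 149 CPM (142 to 156) in the 1489 without it. The latter were 3.43-fold (3.18 to 3.71) above the 6234 Fxyd7-negative control T cells, at 43.3 CPM, in a comparison where 10.8% of genes were higher and 4.7% lower by the rule. The cKO T cells without Fxyd7 held more transcripts of other cells than those with it. The gut list summed to 2376 and 147 CPM, the B cell list to 1984 and 825 CPM, and a Trac UMI was in 82.7% and 95.7%. The part of this in the Rora levels was not tested. T cells with Trdc, the γδ receptor constant gene, and no Trac UMI had 6 Rora UMIs in 72 control cells and 51 in 70 cKO cells, 17.6 and 95.1 CPM.

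**Figure D1:**
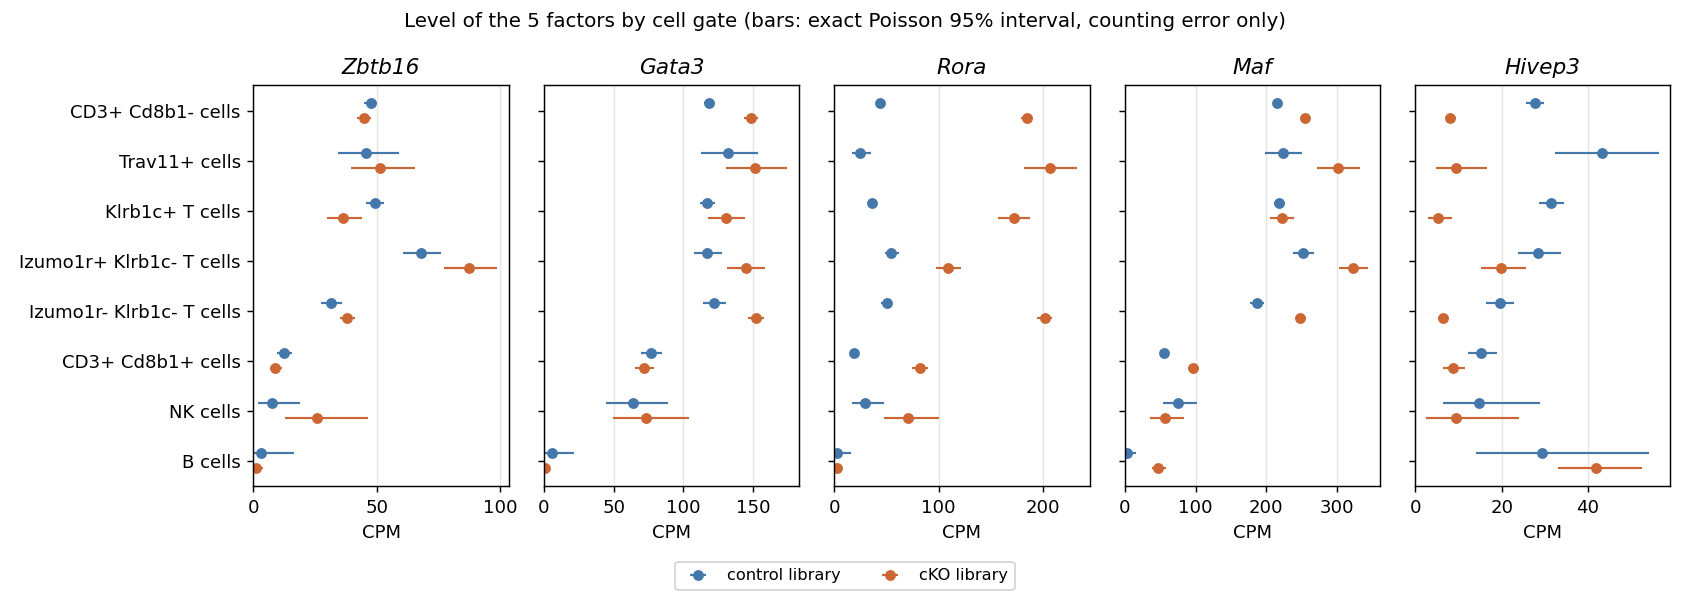
CPM (horizontal axis, 1 panel per gene, each with its own scale) of the 5 genes in 8 cell gates of the control and cKO libraries. Points are summed UMIs of 1 library and bars are exact Poisson 95% intervals for counting error only. In CD3+ Cd8b1- cells Rora stands at 43.4 CPM in control against 185 CPM in cKO, and Hivep3 at 27.7 and 8.12 CPM.

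Hivep3 (Schnurri-3) was the member with the lowest ratio. It stood at 27.7 CPM (25.7 to 29.7) in control T cells, from 739 UMIs, and at 8.12 CPM (6.97 to 9.40) in cKO T cells, from 178 UMIs. The intervals do not overlap, and the cKO level was 3.40-fold lower (2.89 to 4.04), the 40th lowest ratio of the 5964 genes. In Trav11+ cells it stood at 43.1 CPM (32.3 to 56.4), from 53 UMIs, in control and at 9.50 CPM (4.91 to 16.6), from 12 UMIs, in cKO, 4.40-fold lower (2.40 to 9.33). Here its ratio was the 63rd lowest of 6160. It was 0.0829 (0.0143 to 0.225) without the 5% of cells with the most UMIs, and 0.374 (0.00570 to 2.83), no longer past the rule, with cells thinned before gating. The NK cells had 8 and 4 Hivep3 UMIs, under 20 CPM in both libraries, so that no difference was detectable at this depth.

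Hivep3 differed between T cell gates. In Klrb1c+ T cells, where 7.63% of genes were lower by the rule, it stood at 31.5 CPM (28.7 to 34.5) in control against 5.21 CPM (2.92 to 8.60) in cKO, 5.86-fold lower (3.63 to 10.9). In Izumo1r+ cells the levels lay closer, at 28.5 CPM (23.9 to 33.7) and 19.9 CPM (15.2 to 25.6), a difference of 1.42-fold (1.05 to 1.97) that did not meet the rule. Among cKO T cells Hivep3 was at 4.22 CPM (3.09 to 5.63) with Fxyd7 and at 12 CPM (10 to 14.2) without it, while Fxyd7-negative control T cells stood at 27.7 CPM. The cKO T cells without Fxyd7 held more gut and B cell transcripts, as given above, and the part of these in the Hivep3 levels was not tested. B cells had a level of their own, at 29.4 CPM (14.1 to 54.1) in control against 42.0 CPM (33.1 to 52.5) in cKO, with a ratio of 1.37 (0.735 to 3.10). Without T cells that had a Cd79a UMI, a B cell gene, or over 1% gut UMIs, Hivep3 was at a ratio of 0.241 (0.198 to 0.289) in T cells.

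Zbtb16, the gene of PLZF, had close levels in the T cells of both libraries. It stood at 47.6 CPM (45.0 to 50.3) in control, from 1272 UMIs, and at 44.8 CPM (42.1 to 47.7) in cKO, from 983 UMIs, with a ratio of 0.94 (0.87 to 1.02). In Trav11+ cells it stood at 45.6 CPM (34.4 to 59.2) and 51.5 CPM (39.7 to 65.6), a ratio of 1.13 (0.78 to 1.64). The intervals of both pairs overlap. The Trav11+ interval leaves room for a level up to 1.64-fold higher.

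Among T cell gates Zbtb16 was highest in Izumo1r+ cells in both libraries, with 68.1 CPM (60.9 to 75.9) in control against 87.5 CPM (77.4 to 98.7) in cKO. For Klrb1c+ cells the levels were 49.1 CPM (45.6 to 52.9) and 36.5 CPM (29.8 to 44.2), and for cells with neither transcript 31.4 CPM (27.5 to 35.8) and 38.2 CPM (35.2 to 41.3). The last pair of gates overlapped in cKO, while in control Klrb1c+ cells were higher. The gates differ in depth, as given above, and the part of depth in this order was not tested. The ratio was 1.29 (1.09 to 1.52) in Izumo1r+ cells, 0.745 (0.599 to 0.912) in Klrb1c+ cells and 1.21 (1.04 to 1.42) in the rest, so the gates lay on both sides of 1 while none met the rule. The median log2 ratio of all genes tested was above 0 in each of them, at 0.10, 0.17 and 0.18. CD3+ Cd8b1+ cells had 12.4 and 8.89 CPM, and B cells 1 and 2 UMIs. NK cells had 4 control UMIs and 11 cKO UMIs, 7.32 CPM (2.00 to 18.8) and 25.9 CPM (12.9 to 46.4), a ratio of 3.29 (1.05 to 15.2) that met the rule but was 0.923 (0.0137 to 8.94) once cells were thinned before gating.

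Gata3, whose zinc finger product directs type 2 and CD4 lineage genes, was slightly higher in cKO T cells and did not meet the rule. It stood at 119 CPM (115 to 123) in control against 148 CPM (143 to 153) in cKO, a ratio of 1.25 (1.19 to 1.31). In Trav11+ cells it was at 132 CPM (112 to 154) and 151 CPM (131 to 174), and in NK cells at 64.1 CPM (44.6 to 89.1) and 73.0 CPM (49.6 to 104). The intervals overlap in both of these gates. The 3 T cell gates had a range of 117 to 122 CPM in control against of 131 to 152 CPM in cKO. In the Trdc+ cells it went the other way, at 149 CPM (111 to 197) and 78.3 CPM (56.4 to 106), 1.90-fold lower in cKO (1.24 to 2.94). That difference met the rule, from 51 UMIs in 72 control cells and 42 in 70 cKO cells. The share of all genes that met it in this gate was not counted, so it has no background here.

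Maf was at 215 CPM (210 to 221) in control T cells and 255 CPM (248 to 261) in cKO T cells, a ratio of 1.18 (1.14 to 1.23). In Trav11+ cells the levels were 223 CPM (197 to 251) and 301 CPM (271 to 333), a ratio of 1.35 (1.15 to 1.58), and in NK cells 75.1 CPM (53.9 to 102) and 56.6 CPM (36.2 to 84.1). None of these met the rule. It was met in CD3+ Cd8b1+ cells, at 55.6 CPM (49.4 to 62.4) and 96.5 CPM (88.7 to 105), with a ratio of 1.73 (1.5 to 2). In B cells Maf had 1 UMI in 54 control cells and 86 UMIs in 309 cKO cells, where the gut list summed to 0 and 13429 CPM. The cKO cells rich in gut transcripts themselves had 246 CPM of Maf, against 5.58 CPM of Zbtb16 and 1.95 CPM of Gata3. Without T cells that had a Cd79a UMI or over 1% gut UMIs, the Maf ratio in T cells was 1.24 (1.2 to 1.29). The antisense transcript Gm15655 overlaps Maf and had 160 and 170 UMIs of its own in control and cKO T cells.

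Total scaling put the median log2 ratio of all genes tested at 0.16 in T cells and 0.16 in Trav11+ cells, above 0, and the median of the 5 members in T cells was 0.24. Mitochondrial and ribosomal protein genes took 36.9% of UMIs in control and 29.1% in cKO T cells. Genes called higher made 71.4% of all calls in T cells, 47.1% with median-ratio scaling and 49.0% with these genes left out of the total, and the shares of genes called became 7.44% higher and 8.34% lower, and 8.14% higher and 8.47% lower. With median-ratio scaling the T cell ratios were 0.841 (0.773 to 0.915) for Zbtb16, 1.12 (1.06 to 1.17) for Gata3 and 1.06 (1.02 to 1.10) for Maf. On the same scaling Rora was at 3.81 (3.57 to 4.07).

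Depth differed between the libraries, so T cells were also compared within ranges of UMIs per cell. For Rora the ratio was 8.67 (6.52 to 11.4) in cells of 500 to 2000 UMIs, 6.81 (5.62 to 8.32) from 2000 to 5000, 4.26 (3.92 to 4.65) from 5000 to 10000 and 3.18 (2.73 to 3.73) above that. Control levels stayed between 37.6 and 47.4 CPM, while cKO levels were 327, 257, 202 and 127 CPM from the shallowest to the deepest range. Hivep3 was 4.02-fold lower from 2000 to 5000 UMIs, 5.29-fold from 5000 to 10000 and 2.53-fold above that, and had only 1 UMI in the 193 shallowest cKO cells. Zbtb16 had ratios of 1.37, 0.772, 0.802 and 1.11 over the 4 ranges, of which the third alone had an interval that excluded 1 (0.718 to 0.896). Those of Gata3 were 1.01, 1.36, 1.36 and 1.08. Maf was past 1.5-fold in the shallowest range, at 1.83 (1.46 to 2.25), from 689 control and 97 cKO UMIs. It was at 1.23, 1.16 and 1.25 in the others.

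**Figure D2:**
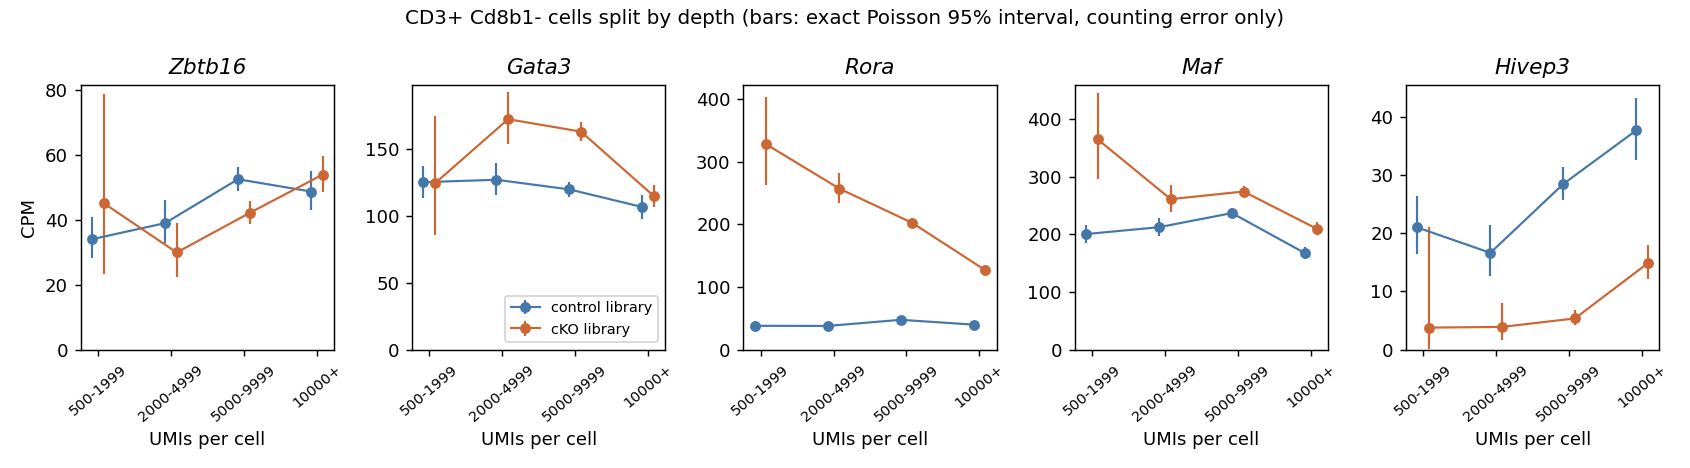
CPM (vertical axis, 1 panel per gene) of the 5 genes in CD3+ Cd8b1- cells split by UMIs per cell (horizontal axis), in the control and cKO libraries, with exact Poisson 95% intervals for counting error only. Rora lies between 37.6 and 47.4 CPM in control, and goes from 327 to 127 CPM with depth in cKO.

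The share of cells with a UMI was compared after each cell was thinned to 1500 UMIs, which left 4329 control and 2867 cKO T cells and left out 1907 and 109 shallower ones. Rora was found in 5.82% of control and 22.8% of cKO T cells (12.5% and 54.6% unthinned), and 2 or more UMIs in 0.439% and 5.76%. Hivep3 was found in 3.74% and 0.732% (8.82% and 4% unthinned). The share of cells was therefore 3.91-fold higher (3.38 to 4.55) for Rora and 5.01-fold lower for Hivep3 in cKO, a ratio of 0.200 (0.118 to 0.309). For Hivep3 the ratio was 0.416 (0.255 to 0.635) with cells thinned to 1000 UMIs. For the other members the shares were 5.96% and 5.51% for Zbtb16, 16.4% and 20.3% for Gata3, and 23.9% and 28.1% for Maf.

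As a measure of background, B cells (34 control and 218 cKO cells after thinning) had a Rora UMI in 1 and 1 of them, a Zbtb16 UMI in 0 and 0, and a Gata3 UMI in 1 and 0. The T cell shares of these 3 genes lie above the B cell shares, but the 34 control B cells set only a loose limit, with an interval up to 15.3% for Rora. Maf was found in 0 and 29 B cells, and Hivep3 in 3 and 11 (8.82% and 5.05%). B cells had a Hivep3 level of their own, so they cannot serve as its background, and by this measure none was set. The Hivep3 shares of T cells, 3.74% in control and 0.732% in cKO, were the lower ones in both libraries. The control B cell interval (1.86 to 23.7%) includes the control T cell share. The cKO cells rich in gut transcripts had 1.67 CPM of Hivep3. At the same depth, Trav11+ cells had Rora in 3 of 166 control cells and 44 of 146 cKO cells, 1.81% and 30.1%.

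Most thinned T cells had a UMI of at most 1 of the 5 genes. None was found in 55.4% of control and 45.3% of cKO T cells, and 2 of them in 8.66% and 15.7%. No cell in either library had all 5.

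Tbx21 (T-bet) was at 86.8 CPM in control against 129 CPM in cKO T cells, a ratio of 1.48 (1.40 to 1.57), so its co-detection with each member was set against the number that independent detection within a library would give. In control T cells 25 had both Rora and Tbx21, against 27.9 under independence, and in cKO T cells 124 had both, against 114. Thinned to 1000 UMIs, the cKO count was 1.32 (1.06 to 1.63) times that under independence. Cells with both were 0.578% of control and 4.33% of cKO T cells. Rora was found in 5.21% (3.40 to 7.59) of control cells with Tbx21 and 5.90% (5.17 to 6.69) of those without, and in 24.8% (21.1 to 28.8) and 22.4% (20.7 to 24.1) of cKO cells. At this depth the intervals overlap within each library, and the cKO shares lie above the control shares in cells with and without Tbx21.

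At 1500 UMIs the other members were found with Tbx21 at rates whose intervals all included those of independence. For Zbtb16, 36 control cells had both against 28.6, and 35 cKO cells against 27.6, ratios of 1.26 (0.88 to 1.74) and 1.27 (0.89 to 1.76). Maf had 133 against 115 and 151 against 141, and Gata3 had 75 against 78.6 and 119 against 101. Hivep3 was found with Tbx21 in 19 control cells, against 18.0, and in 0 of 500 cKO cells with Tbx21, against 3.66. A count of 0 of 500 has an exact upper limit of 0.735%, and Hivep3 was in 0.887% (0.550 to 1.35) of the cKO cells without Tbx21. The intervals overlap, and so few cells with Hivep3 do not show whether the 2 classes differ.

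**Figure D3:**
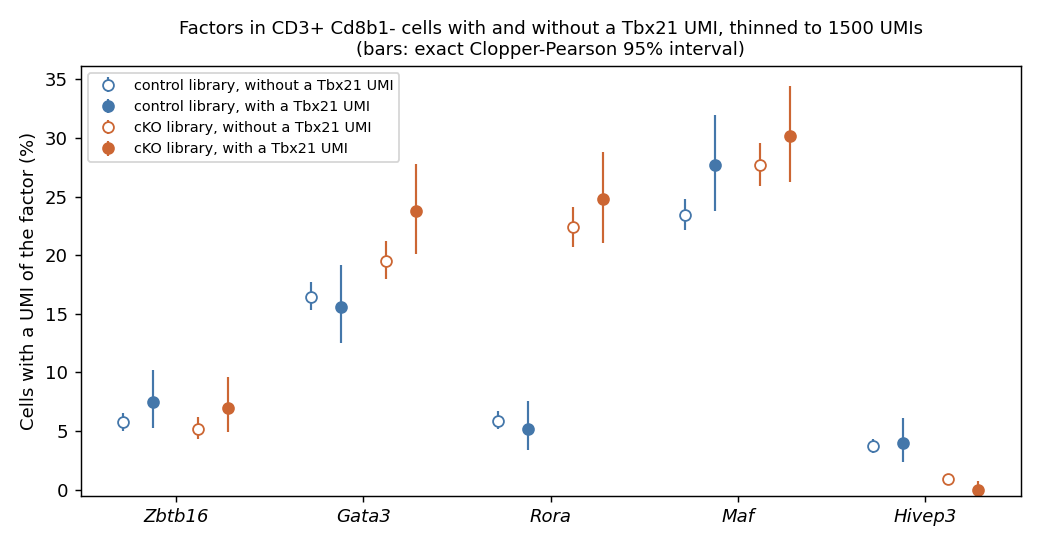
Percent of CD3+ Cd8b1- cells with a UMI of each factor (vertical axis) among cells with (filled) and without (open) a Tbx21 UMI, thinned to 1500 UMIs, in the control and cKO libraries, with exact Clopper-Pearson 95% intervals. Rora is in 5.21% and 5.90% of control cells with and without Tbx21, and in 24.8% and 22.4% of cKO cells.

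Among pairs of members, some were found in the same T cell more often than independent detection gives. Zbtb16 and Maf were together in 94 control cells against 61.7, a ratio of 1.52 (1.23 to 1.86), and in 56 cKO cells against 44.5, a ratio of 1.26 (0.953 to 1.63). Zbtb16 and Gata3 were together in 43 control cells against 42.3 and in 50 cKO cells against 32.0, where the ratio was 1.56 (1.16 to 2.05). Gata3 and Rora exceeded independence in both libraries, at 1.38 (1.05 to 1.79) in control and 1.24 (1.06 to 1.44) in cKO. Gata3 with Maf, at 1.25 (1.09 to 1.42), and Rora with Maf, at 1.26 (1.11 to 1.43), did so in cKO, with control values of 1.03 (0.887 to 1.19) and 1.18 (0.921 to 1.48). In all, 10 pairs were compared in each library without a test, and whether any pair differed between the libraries was not tested.

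In the small gates, shares were taken without thinning. Among Trav11+ cells, Rora was in 12 of 69 control cells with Tbx21 (17.4%) and 10 of 109 without (9.17%), and in 69 of 96 (71.9%) and 31 of 53 (58.5%) in cKO. The intervals overlap within each library, and the cKO shares lie above the control shares in both classes. In cKO NK cells Gata3 was in 20 of 35 cells with Tbx21 (57.1%, 39.4 to 73.7) and 1 of 18 without (5.56%, 0.141 to 27.3), and in control NK cells in 15 of 48 (31.2%) and 11 of 57 (19.3%). Deeper cells have more UMIs of both genes, and these shares are not set to 1 depth.

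The subset programmes around the 5 genes were described in T cells by lists, beside the 12.7% of all genes tested that were higher by the rule, the 5.08% that were lower and their median log2 ratio of 0.16. With median-ratio scaling these shares were 7.44% and 8.34%. The lists overlap, and no list was tested against other genes. Of 20 iNKT1 genes, 7 were higher and 3 lower in cKO, with a median of 0.19. The protease gene Gzmb stood at 463 and 1030 CPM and the SLAM family receptor gene Slamf7 at 140 and 285 CPM. The 3 lower genes were Klrb1c, 7.35-fold at 172 and 23.4 CPM, the chemokine gene Xcl1 at 446 and 254 CPM, and Ly6c2 at 800 and 513 CPM. With median-ratio scaling the counts were 4 higher and 5 lower.

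Of 16 iNKT2 genes 10 reached 20 CPM, of which 5 were higher and 1 lower, or 3 and 1 with median-ratio scaling. Plac8 stood at 75.0 CPM in control against 163 CPM in cKO, Slamf6, another SLAM family receptor gene, at 27.2 and 70.7 CPM, and the ERK phosphatase gene Dusp6 at 20.7 and 37.4 CPM. The lower gene was Izumo1r, 3.53-fold. Of 16 iNKT17 genes only 3 reached 20 CPM, of which 2 were higher. These were Serpinb1a, a serine protease inhibitor gene, at 4.83 and 27.6 CPM, and Emb, a cell adhesion gene, at 45.9 and 90.1 CPM. The third, Ramp1, met the rule in neither direction, at 124 and 85.0 CPM. With median-ratio scaling 2 were higher and 1, Ramp1, was lower.

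Genes of the clock circuit, in which RORα and REV-ERB receptors compete for the same DNA elements, included 17 members, of which 5 reached 20 CPM and 4 were higher in cKO, against 12.7% of all genes. Arntl, the gene of BMAL1, stood at 14.3 and 30.8 CPM, the repressor gene Cry1 at 8.99 and 28.1 CPM and Dbp at 15.9 and 29.7 CPM. These reached 20 CPM in cKO alone, so the rule could call them higher but not lower. The other 12 members stayed under 20 CPM in both libraries, with ratios on both sides of 1. Clock, at 21.1 and 32.3 CPM, did not meet the rule under median-ratio scaling or without mitochondrial and ribosomal genes, and Bhlhe40, at 67 and 47.8 CPM, was lower by the rule under both.

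Of 11 partner factors of Maf and AP-1 that reached 20 CPM, 2 were higher and 5 lower, with a median of -0.40, where 5.08% of all genes were lower. Junb stood at 1573 and 744 CPM, Jund at 1601 and 883 CPM and Fosb at 356 and 162 CPM, all lower, while Nfe2l1 was higher at 30.1 and 54.6 CPM. Junb, Jund and Fosb encode AP-1 subunits. Of 8 GATA3 partner and type 2 genes, 2 were higher, the cytokine gene Il4 at 40.5 and 66.7 CPM and the chemokine receptor gene Ccr8 at 15.2 and 23.0 CPM, and neither met the rule under the other scalings. Of 14 PLZF partner and target genes 2 were higher, Il4 again and Ezh2, a histone methyltransferase gene at 20.5 and 42.2 CPM, and 12 met the rule in neither direction, a share of higher genes near the 12.7% of all genes. With median-ratio scaling 1 was higher and 1 lower, Klf2, which had 566 and 417 CPM.

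Of 9 genes of early iNKT cells 3 were higher and 1 lower, with Itm2a at 78.7 and 281 CPM, Myb at 10.9 and 28.2 CPM, Ikzf2 at 156 and 304 CPM and Id3 1.66-fold lower at 31.5 and 19.0 CPM. Of 23 other transcription factors of innate-like T cells, 6 were higher and 2 lower, 4 and 3 with median-ratio scaling, where 12.7% and 5.08% of all genes were called on the main scaling. The 2 lower genes were Ets1, the targeted gene, and Id3, already counted above. The repressor gene Zeb2 had the highest ratio of them, at 13.6 and 67.2 CPM (4.93-fold), above that of Rora. The Hivep3 paralog Hivep2 did not meet the rule, at 46.0 and 55.5 CPM, and Hivep1 stayed under 20 CPM at 9.62 and 13.3 CPM.

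**Figure D4:**
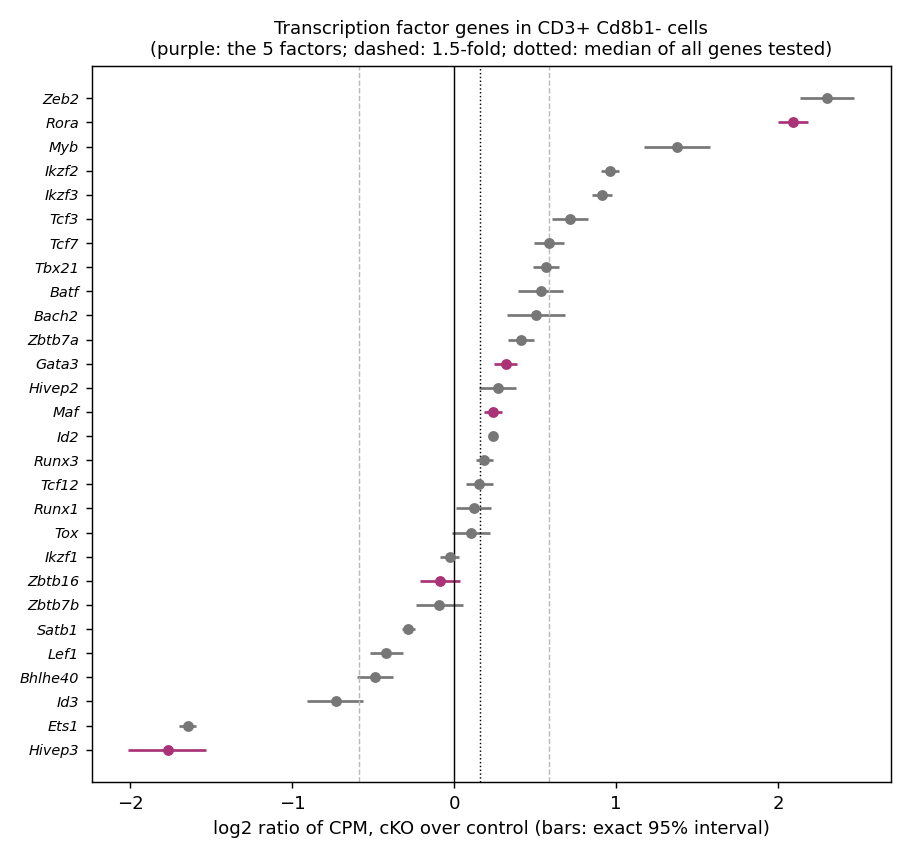
Log2 ratio of CPM, cKO over control (horizontal axis), of the 5 factors (purple) and the other transcription factor genes that reached 20 CPM in CD3+ Cd8b1- cells, with exact 95% intervals for counting error. Rora (4.26-fold higher) lies beside Zeb2 (4.93-fold) at the top, Hivep3 (3.40-fold lower) at the bottom, and Zbtb16, Gata3 and Maf lie inside the dashed lines at 1.5-fold.

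Markers of other cells with high Rora were read beside it. Of 10 genes of type 2 innate lymphoid cells, a list that holds Rora and Gata3 themselves, only Gata3, Rora and Calca reached 20 CPM in T cells. Of these, 2 met the rule as higher, Rora and Calca, the gene of the peptide CGRP, at 7.86 and 611 CPM. Of all genes tested in T cells 12.7% were higher. The list summed to 175 CPM in control against 961 CPM in cKO. Of its defining genes, Il1rl1 stood at 0.374 and 1.46 CPM, Arg1 at 0.674 and 1.46 CPM and Il5 at 0 in both. The cytokine gene Il13 had 27 UMIs in control and 190 in cKO T cells, 1.01 and 8.67 CPM, a ratio of 8.44 (5.71 to 13.4) below the minimum level of the rule, and in Trav11+ cells it stood at 0.814 and 15.8 CPM. Areg was at 0.187 and 1.41 CPM in T cells, Rnf128 at 1.68 and 2.78 CPM and Kit at 1.27 and 2.05 CPM. The γδ list summed to 386 and 385 CPM, with Trdc at 26.7 and 63.2 CPM, and the regulatory T cell list to 347 and 562 CPM with 3 of 6 genes higher. Foxp3 and Il2ra of the latter stayed under 20 CPM. The part of these lists in the Rora level was not tested. In Trav11+ cells Foxp3, the defining regulatory T cell gene, had no UMI in either library.

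Genes with the most similar pattern to each member were taken over 12 points, 6 gates in 2 libraries, as Pearson's r of log2(CPM + 10) among 7316 genes. The points share libraries, depths and gate genes, and the values are a description. Rora was nearest to Gabarapl2 (0.98), Ttc39c (0.98) and Vps4b (0.98), of which Ttc39c stood at 26.7 and 80.8 CPM in T cells, a ratio of 3.03. Hivep3 was nearest to Aim2 (0.94), Tmem245 (0.91) and H1f0 (0.90), the last 2.93-fold lower in cKO T cells at 30.0 and 10.2 CPM. Zbtb16 was nearest to Arhgap15 (0.93), Icos (0.90) and Adgrl1 (0.89), Gata3 to Egln1 (0.99), Aak1 (0.98) and Prkcq (0.97), and Maf to Atxn7 (0.98), Rtf1 (0.97) and Srrm2 (0.96). Between members, r was highest for Gata3 with Rora, at 0.85, and lowest for Rora with Hivep3, at -0.77.

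On GRCm38, Zbtb16 (ENSMUSG00000066687) lies on chromosome 9 from 48654297 to 48836222 on the minus strand, and Rora (ENSMUSG00000032238) on the same chromosome from 68653786 to 69388246 on the plus strand. Gata3 (ENSMUSG00000015619) lies on chromosome 2 from 9857078 to 9890034 on the minus strand, Maf (ENSMUSG00000055435) on chromosome 8 from 115682942 to 115707794 on the minus strand, and Hivep3 (ENSMUSG00000028634) on chromosome 4 from 119733784 to 120138045 on the plus strand. Genes that overlap them in the annotation had at most 19 UMIs in the T cells of a library, except Gm15655.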

How the data were processed

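Sorted mouse thymus cells were profiled by single-cell RNA sequencing, with 1 library per genotype. The authors' deposited matrices hold whole-number UMI counts per gene and barcode. They were made with Cell Ranger 2.1.1 on mm10 per the submitters' processing notes, from 3′ libraries per the labels' protocols, while the file headers name software version 3.0.0. The sources used here give no annotation or alignment settings. Every deposited barcode held at least 500 UMIs.

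Counts were summed over the cells of a gate and divided by all their UMIs to give CPM, with exact Poisson intervals. Ratios are cKO over control, with 0.5 UMIs added to both sums and exact conditional binomial intervals. Shares have Clopper-Pearson intervals at the 95% level, and a count of 0 of 500 cells was limited by that interval. No doublet caller was run and no doublets were removed; an alternative left out the 5% of cells with the most UMIs. B cells had a Cd79a UMI and none of CD3 or Ncr1. Cells rich in gut transcripts had over 1% of their UMIs on the gut list and no CD3 UMI.

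Named were the 5 genes, Tbx21 and Ets1, genes that define a gate or marker list, up to 4 genes of each list with the largest ratios among those that met the size rule, and for each member the 3 genes nearest in pattern. Hivep1, Hivep2, Bhlhe40, Ramp1, Trdc and Gm15655 were added to the text after the values were known. Some results are not reported here. The members, gates and lists were chosen with earlier results of these data known. The size rule was tested on simulated data. Gene positions come from GENCODE vM21 on GRCm38, which held 99.6% of the feature identifiers, and promoter windows from RefSeq, which matched 3 of the 5 genes. Scripts used scipy 1.17.1, numpy 2.4.6 and pandas 2.3.3 in Python 3.11.15, with matplotlib 3.10.9 for figures. Alternatives covered cell filters, gates, scaling, cell weights, thinning, thresholds and doublets.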

Additional observations from a re-analysis of the deposited data

Results flagged for a closer look

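Zbtb16 had ratios of cKO to control on both sides of 1 in different gates, each with an interval that excluded 1. It was 0.745 (0.599 to 0.912) in Klrb1c+ T cells, against 1.29 in Izumo1r+ Klrb1c- T cells, 1.21 in T cells with neither transcript and 3.29 in NK cells. On the log2 scale these 4 ratios were -0.42, 0.36, 0.28 and 1.72. In the same order the median of all genes tested was 0.17, 0.10, 0.18 and -0.04, so the ratios were not set against a common median. The difference between gates and the part of total scaling in it were not tested. The NK value rests on 4 control and 11 cKO UMIs and was 0.923 (0.0137 to 8.94) with cells thinned before gating.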

How the results depend on the processing

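No paired analysis was possible because each genotype has 1 library, and for the same reason no replicate could be left out. In T cells Rora (3.80 to 5.06) and Hivep3 (3.44-fold to 5.19-fold lower) stayed past 1.5-fold in the same direction over 11 alternatives, 2 of them (no Tyrobp+ cells, no Cd8a UMI) chosen after seeing the data. Over the same alternatives Gata3 (1.11 to 1.36) and Maf (1.05 to 1.29) stayed above 1 and under the rule, and Zbtb16 (0.839 to 1.03) lay on both sides of 1. The depth ranges were not among them, and in cells of 500 to 2000 UMIs Maf was at 1.83 (1.46 to 2.25). The cause of the shifts listed here was not tested. Median-ratio scaling gave 0.841 for Zbtb16, 1.12 for Gata3, 3.81 for Rora and 1.06 for Maf. Leaving mitochondrial and ribosomal protein genes out of the total gave 0.839, 1.11, 3.80 and 1.05 for these 4. Thinning to 1500 UMIs before gating gave 1.36 for Gata3, 4.98 for Rora, 1.28 for Maf and 0.193 for Hivep3. Weighting cells equally gave 1.03 for Zbtb16, 5.06 for Rora, 1.29 for Maf and 0.243 for Hivep3. Leaving out cells with a Cd79a UMI or over 1% gut UMIs gave 1.32 for Gata3, 1.24 for Maf and 0.241 for Hivep3. Without the 5% of cells with the most UMIs, Hivep3 was at 0.233 in T cells and 0.0829 in Trav11+ cells, where thinning before gating gave 0.374. Thinning before gating left 46 control and 41 cKO Trav11+ cells, with 16.1 for Rora, 1.93 for Maf and 5.61 for Zbtb16, the last with 0 control UMIs and so no fold. In the 84 and 39 NK cells so thinned, Zbtb16 was at 0.923 and Rora at 0.718, which reversed both, and with cells weighted equally Rora was at 8.69 and Maf at 1.58. The share ratio at 1000 UMIs was 4.63 for Rora and 0.416 for Hivep3, and Rora with Tbx21 in cKO was then at 1.32 (1.06 to 1.63) times independence, the sole co-detection value with Tbx21 to move. Genes higher by the rule in T cells numbered 758, and 3511 with no CPM minimum, 387 at 50 CPM, 283 at 2-fold and 427 with median-ratio scaling. Genes lower numbered 303, and 1064, 155, 119 and 479 in the same order, and 605 without mitochondrial and ribosomal genes. In Trav11+ cells 991 were higher, and 587 at 50 CPM, 437 at 2-fold and 613 with median-ratio scaling, and 474 lower, and 231, 246 and 723 in that order, and 890 without mitochondrial and ribosomal genes. In NK cells 450 were higher, and 297 at 50 CPM and 291 at 2-fold, and 617 lower, and 398 at 50 CPM. Depth limits the NK gate most, with 53 cKO cells.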

Other observations

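Tbx21, whose Cre marked the sorted cells, had its own order over the T cell gates. In Klrb1c+ T cells it stood at 93.0 CPM (88.1 to 98.1) in control against 162 CPM (148 to 178) in cKO, 1.75-fold higher (1.57 to 1.94), where 15.9% of genes were higher by the rule. In T cells with neither Klrb1c nor Izumo1r it stood at 81.2 and 135 CPM, 1.66-fold higher (1.51 to 1.82), where 14.7% were higher. The median log2 ratio of all genes tested was 0.17 and 0.18 in these gates. In Izumo1r+ cells Tbx21 stood at 76.3 CPM (68.7 to 84.6) and 66.3 CPM (57.5 to 76.1), a ratio of 0.87 (0.73 to 1.03). Among cKO T cells Tbx21 was at 160 CPM (152 to 167) with a Fxyd7 UMI and 98.0 CPM (92.3 to 104) without one. The cells without one held more gut and B cell transcripts, and the part of these in the Tbx21 level was not tested. Izumo1r+ cells thus had the smallest cKO-to-control ratio of these 3 gates for Tbx21 and for Rora, and Ets1 was 2.20-fold lower (2.03 to 2.38) there, against 3.46-fold (3.15 to 3.82) in Klrb1c+ cells and 3.17-fold (3.01 to 3.34) in the rest. A link between these ratios was not tested. The gates also differed in depth, and in Izumo1r+ cells the regulatory T cell list summed to 462 and 951 CPM.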
